A study of Mus musculus with 12 samples.

Results

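The Klk1 cluster is a run of closely related tissue kallikrein genes that lie side by side on mouse chromosome 7. It was followed here in 2 brain regions, cerebellum and hippocampus, of mice without functional En2. The members were 10 gene names, Klk1, Klk1b3, Klk1b5, Klk1b8, Klk1b11, Klk1b21, Klk1b22, Klk1b24, Egfbp2 and Klk1b27, where Egfbp2 is the array's name for Klk1b26. They were chosen by name after the difference between En2-/- and WT arrays had been seen, so that difference is described below by its values, and no member is given a p-value for it. Of the 10 names, 8 had a probe on the array, Klk1b3 had a pair of them, and the 9 probes were 9 of 41174 distinct probes. No probe carried the name Klk1b5 or Klk1b22, and neither gene was analysed here under its own name.

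RNA was measured on 12 one-colour Agilent arrays, 3 for each genotype in each tissue. The WT mice were En2+/+ and the En2-/- mice lacked the homeobox of En2, a transcription factor that patterns the midbrain and cerebellum. Both came from En2+/- parents, were littermates of both sexes aged 3 to 5 months, and carried a genetic background that started as mixed 129Sv, C57BL/6 and outbred and was then crossed repeatedly into C57BL/6. The mutation is in the germline, and each sample was a whole dissected cerebellum or hippocampus, so fewer cells of a type and less RNA per cell cannot be told apart. Between 62.3% and 73.0% of 43379 spots per array were well above background, and no spot was saturated. The labelled tissues were borne out by their markers: 13 of 13 cerebellum probes were higher and 12 of 14 hippocampus probes lower in WT cerebellum than in WT hippocampus. The En2 probe lies in a part of the transcript that the mutant locus keeps, so it does not check the genotype. Its mean log2 intensity was 14.15 in WT and 14.46 in En2-/- cerebellum (difference 0.31, SE 0.29, adjusted p = 0.882), and 7.69 and 7.46 in hippocampus (difference -0.23, SE 0.31, adjusted p = 0.708).

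Tissue kallikreins are secreted serine proteases. Klk1, the true tissue kallikrein, cuts kininogen and so releases kinins, short peptides that act on bradykinin receptors and widen vessels. In the mouse this gene has been copied many times over into the Klk1b genes, whose products are best known from the submandibular salivary gland. There Egfbp2 and Klk1b22 bind epidermal growth factor (EGF). Klk1b21, Klk1b24 and Klk1b27 are known from Leydig cells of the testis.

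Because the genes are so alike, the probe sequences are shown first: they are what each measurement rests on. Each probe is 60 bases long, as given in the deposited files, 5′ to 3′ on the plus strand. Capitals mark bases that are identical to those of another cluster probe where the pair overlapped, without gaps, over at least 20 bases with at least 75% identity.
Klk1b3, first probe: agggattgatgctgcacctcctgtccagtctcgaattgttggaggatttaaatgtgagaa
Klk1b3, second probe: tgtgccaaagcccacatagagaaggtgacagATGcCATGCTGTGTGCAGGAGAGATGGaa
Egfbp2: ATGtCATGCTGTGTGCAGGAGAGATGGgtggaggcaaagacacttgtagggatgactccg
Klk1b24: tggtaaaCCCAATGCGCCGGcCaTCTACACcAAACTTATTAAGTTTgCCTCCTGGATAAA
Klk1b27: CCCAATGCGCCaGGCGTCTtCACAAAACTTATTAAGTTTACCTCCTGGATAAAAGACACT
Klk1b11: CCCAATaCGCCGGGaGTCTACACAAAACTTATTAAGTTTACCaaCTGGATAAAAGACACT
Klk1b8: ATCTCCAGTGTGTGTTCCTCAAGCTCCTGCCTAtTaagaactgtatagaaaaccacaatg
Klk1b4: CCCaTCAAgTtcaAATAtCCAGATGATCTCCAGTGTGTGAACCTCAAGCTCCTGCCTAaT
Klk1: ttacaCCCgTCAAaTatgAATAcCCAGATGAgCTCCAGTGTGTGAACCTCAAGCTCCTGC
Klk1b21: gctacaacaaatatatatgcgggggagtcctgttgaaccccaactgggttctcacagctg

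The overlaps were large for some pairs. The probes for Klk1b11 and Klk1b27 shared 54 of 60 bases, those for Klk1b27 and Klk1b24 shared 47 of 53 overlapping bases, and those for Klk1b11 and Klk1b24 45 of 53. Klk1b4 and Klk1 shared 48 of 55, and Egfbp2 and the second Klk1b3 probe 26 of 29. The Klk1b8 probe shared 32 of 35 with that of Klk1b4 and 27 of 30 with that of Klk1. The first Klk1b3 probe and the Klk1b21 probe had no such overlap with another cluster probe. The array's annotation also listed a Klk1b22 transcript for the Klk1b24 probe, Klk1b24 and Klk1b11 transcripts for the Klk1b21 probe, and Klk1b16, Klk1 and Klk1b9 transcripts for the first Klk1b3 probe. A signal at 1 of these probes can therefore hold RNA of a near copy, and how much each probe binds of its neighbours' RNA was not tested. The probes for Klk1b11 and Klk1b27, the most alike pair, gave separate readings. In En2-/- cerebellum the Klk1b27 probe was well above background on 3 of 3 arrays and the Klk1b11 probe on 0 of 3.

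All 9 probes lie on the plus strand of chromosome 7 (mm9, from the files) within 274.7 kb. In order they are Klk1b8 (51209619 to 51209678), Klk1b11 (51255119 to 51255178), Egfbp2 (51271716 to 51272144), Klk1b27 (51311959 to 51312018) and Klk1b21 (51359794 to 51359853), followed by Klk1b24 (51447692 to 51447751), Klk1b3 first probe (51453655 to 51455660), Klk1b3 second probe (51457064 to 51457122) and Klk1 (51484170 to 51484325). The Egfbp2, first Klk1b3 and Klk1 probes cover more genome than their 60 bases, since their sequence is joined across an intron.

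The promoters of the cluster are alike too, and are shown beside the probes. RefSeq promoter sequence was matched by symbol for 14 cluster genes. It is given on GRCm38.p6, a later build than that of the probe coordinates above, as the 100 bases before the annotated start on the plus strand. Capitals mark the letters TTTAAA, which read the same on both strands, within 60 bases of the start.
Klk1b24, chr7:44188136-44188235: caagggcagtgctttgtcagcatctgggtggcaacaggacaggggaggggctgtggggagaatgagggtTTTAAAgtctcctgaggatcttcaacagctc
Klk1b3, chr7:44198091-44198190: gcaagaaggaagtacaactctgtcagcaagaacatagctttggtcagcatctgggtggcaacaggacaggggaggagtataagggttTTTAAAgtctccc
Klk1b26, chr7:44012578-44012677: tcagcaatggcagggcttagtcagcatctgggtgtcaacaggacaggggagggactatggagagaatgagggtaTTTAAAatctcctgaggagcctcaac
Klk1b27, chr7:44052190-44052289: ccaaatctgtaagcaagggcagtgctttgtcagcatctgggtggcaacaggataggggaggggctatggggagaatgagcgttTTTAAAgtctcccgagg
Klk1b8, chr7:43950566-43950665: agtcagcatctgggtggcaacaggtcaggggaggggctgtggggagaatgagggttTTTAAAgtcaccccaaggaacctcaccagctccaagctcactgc
Klk1b11, chr7:43995777-43995876: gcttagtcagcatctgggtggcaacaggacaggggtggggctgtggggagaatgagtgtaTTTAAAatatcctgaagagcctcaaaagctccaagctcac
Klk1b21, chr7:44102192-44102291: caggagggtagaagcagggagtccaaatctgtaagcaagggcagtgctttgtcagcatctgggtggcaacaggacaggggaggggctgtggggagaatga
Klk1, chr7:44225260-44225359: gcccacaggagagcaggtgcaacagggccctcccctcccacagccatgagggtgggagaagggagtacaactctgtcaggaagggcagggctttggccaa

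TTTAAA was found within 60 bases of the start in 12 of the 14 cluster promoters, against 2.79% of 32851 promoters of all genes over the same length. No match lay in the windows of Klk1b21 and Klk1. Over 250 bases the counts were again 12 of 14, against 12.08% of all promoters. The letters TATAAA, searched on both strands, were in 0 of 14 over either length, against 3.92% of all promoters within 60 bases and 12.37% within 250. The window depends on the annotated start: that of Klk1b21 ends inside the stretch that comes just before TTTAAA in Klk1b24. The cluster promoters are those of copied genes, so the 14 are not independent. TTTAAA was also found for Klk1b1, Klk1b9, Klk1b11 and Klk1b16, whose probes were at background or did not pass in cerebellum. Whether the promoters bear on the genotype difference was not tested.

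In the En2-/- cerebellum 7 of the 9 probes read higher than in WT, with no overlap between the 3 arrays of each genotype, and the same 7 did so in the hippocampus. They stand for Klk1b3 (both probes), Egfbp2, Klk1b24, Klk1b21, Klk1b27 and Klk1b8. The share of all probes whose arrays separated in this way was not counted, so no weight is put on that count. Klk1 and Klk1b11 were at or near background in both genotypes of the cerebellum. Values are normalized log2 intensities, where a step of 1 is a doubling, and are compared only within a probe. A probe entered the test in a tissue if either genotype had it well above background on each of its 3 arrays. In the cerebellum 7 of the 9 probes could be tested and limma's adjusted p was under 0.05 for 7, all higher, where 0.558% of 27430 probes passed in either direction and 0.237% passed as higher. In the hippocampus 6 could be tested and 5 passed, all higher, where 2.12% of 25674 probes passed in either direction and 0.904% as higher. The members were selected on this contrast, so those counts restate the selection and nothing is read from them. The median log2 difference was 5.86 over the tested cluster probes in cerebellum and 3.75 in hippocampus, beside -0.00 and 0.02 over all probes tested. These medians restate the selection as well. Most of the tested cluster probes entered only through the En2-/- arrays, and the dim Klk1 and Klk1b11 probes are left out.

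**Figure D1:**
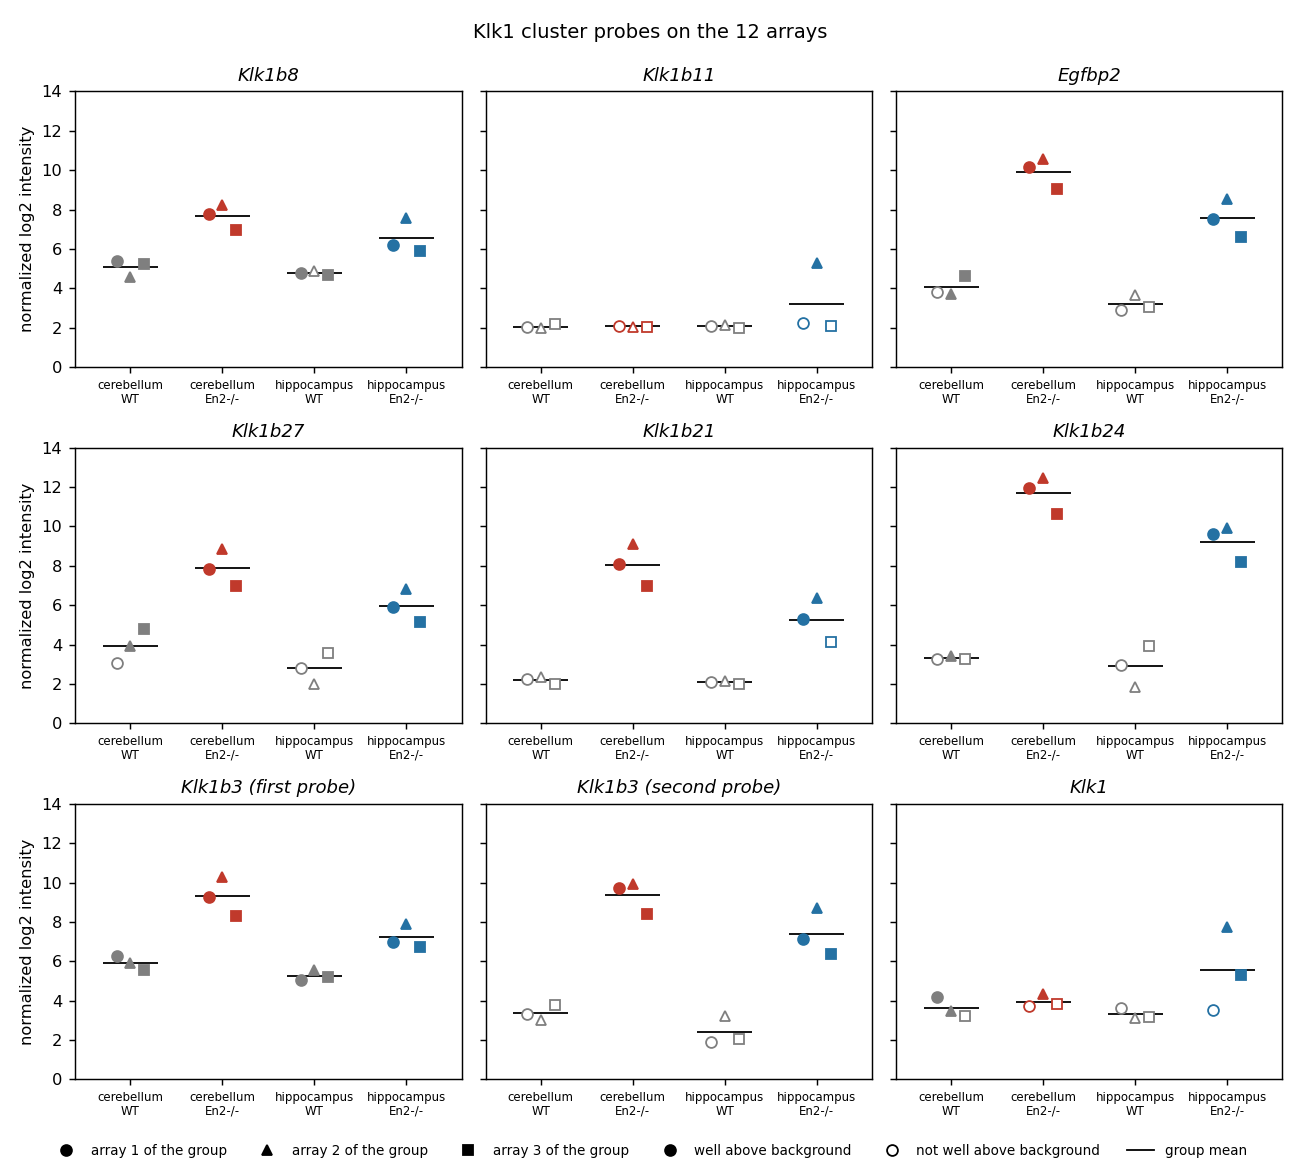
Normalized log2 intensity of the 9 cluster probes on the 12 arrays, 1 panel per probe, with 3 arrays per group. Symbols mark the array number within a group, filled symbols are well above background and the line is the group mean; the En2-/- arrays sit above the WT arrays in both tissues for 7 probes, while Klk1 stays low except on the second and the third of the En2-/- hippocampus arrays and Klk1b11 except on the second.

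The 2 probes of Klk1b3, a secreted protease of the salivary gland, lie at different positions of the gene, and their sequences do not overlap. At the first, the WT cerebellum arrays read 6.28, 5.91 and 5.58 and the En2-/- arrays 9.25, 10.31 and 8.32. The WT hippocampus arrays read 5.03, 5.57 and 5.21 and the En2-/- arrays 6.98, 7.92 and 6.74. All 12 arrays had this probe well above background. The log2 difference was 3.37 (SE 0.47, 10.3-fold) in cerebellum and 1.94 (SE 0.32, 3.85-fold) in hippocampus. The WT hippocampus readings were not far above the lowest signals well above background on those arrays, 4.23, 4.76 and 4.28. The folds depend on the background treatment given below. The annotation also lists Klk1b16, Klk1 and Klk1b9 transcripts for this probe, so its WT level may not be that of Klk1b3 alone. At the second probe the WT cerebellum arrays read 3.35, 3.02 and 3.81 and the En2-/- arrays 9.71, 9.95 and 8.39. In the hippocampus they read 1.92, 3.21 and 2.07 in WT and 7.13, 8.72 and 6.35 in En2-/-. Here no WT array was well above background in either tissue, so the difference is a bound. It was at least 54.2-fold higher in En2-/- cerebellum and at least 7.88-fold higher in En2-/- hippocampus. A bound sets the mean of the bright group against, per dim array, the higher of the lowest signal well above background and the probe's own signal. The measured log2 differences were 5.96 (SE 0.42) and 5.0 (SE 0.59).

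Egfbp2 encodes an EGF-binding protein. On the WT cerebellum arrays its probe read 3.82, 3.72 and 4.65, well above background on 2 of 3, and on the En2-/- arrays 10.14, 10.59 and 9.05. On the hippocampus arrays it read 2.90, 3.68 and 3.04 in WT and 7.52, 8.53 and 6.61 in En2-/-. All En2-/- arrays were well above background and lay above every WT array of the same tissue. The log2 difference was 5.87 (SE 0.43) in cerebellum and 4.35 (SE 0.46) in hippocampus, where no WT array was above background and the bound was at least 8.75-fold. A further probe in the same gene carries the name Klk1b26, and so was no member. It was not well above background on any of the 12 arrays. The annotation lists for each of this pair the transcript of the other. The reason for their different readings was not tested.

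Klk1b24 is a testis peptidase whose probe had the largest difference of the 9 as measured. It read 3.27, 3.40 and 3.27 on the WT cerebellum arrays, with 1 of 3 well above background, and 11.93, 12.46 and 10.64 on the En2-/- arrays. In the hippocampus it read 2.97, 1.84 and 3.91 in WT, none of them well above background, and 9.61, 9.90 and 8.17 in En2-/-. No array of 1 genotype came near those of the other. The measured log2 difference was 8.36 (SE 0.43) in cerebellum, where 2 of the 3 WT readings were not well above background and an exact fold cannot be given, and 6.32 (SE 0.59) in hippocampus, the latter at least 27.9-fold.

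Klk1b21, a second peptidase known from the testis, read 2.25, 2.33 and 2.01 on the WT cerebellum arrays and 8.08, 9.10 and 6.99 on the En2-/- arrays. The WT hippocampus arrays read 2.08, 2.15 and 2.01 and the En2-/- arrays 5.29, 6.37 and 4.11. WT was at background in both tissues, and 1 of the 3 En2-/- hippocampus arrays was not well above it, so the probe was not tested there. The log2 difference was 5.86 (SE 0.48) in cerebellum, at least 22.1-fold, and 3.18 (SE 0.55) in hippocampus, at least 1.78-fold. Klk1b27 read 3.07, 3.94 and 4.78 on the WT cerebellum arrays, 2 of them well above background, and 7.83, 8.86 and 6.96 on the En2-/- arrays. Its hippocampus values were 2.79, 2.01 and 3.59 in WT and 5.89, 6.81 and 5.16 in En2-/-. The groups were apart in both tissues, by a log2 difference of 3.95 (SE 0.56) in cerebellum and 3.16 (SE 0.50) in hippocampus, at least 2.89-fold.

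Klk1b8, the member at the low-coordinate end of the cluster, had the smallest difference of the 7. It was above background in both genotypes of the cerebellum, at 5.40, 4.59 and 5.22 in WT and 7.80, 8.21 and 6.96 in En2-/-. In the hippocampus it read 4.76, 4.87 and 4.69 in WT, with 2 of 3 well above background, and 6.18, 7.55 and 5.91 in En2-/-. The arrays did not overlap. The log2 difference was 2.59 (SE 0.36, 6.02-fold) in cerebellum and 1.77 (SE 0.40) in hippocampus, where an exact fold cannot be given.

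The probe of Klk1, the ancestral gene, did not follow them in the cerebellum. Klk1 read 4.17, 3.49 and 3.24 on WT and 3.71, 4.33 and 3.83 on En2-/- cerebellum arrays, which overlap, with a difference of 0.32 (SE 0.30). In the hippocampus WT read 3.64, 3.12 and 3.17, all at background, and En2-/- read 3.53, 7.76 and 5.32. Only the second and the third of the En2-/- arrays were well above background, the groups overlap, and the difference was 2.22 (SE 1.03). Klk1b11, a Klk1b gene of less known function, was at background on 11 of 12 arrays, with values from 1.98 to 2.26. The exception was the second En2-/- hippocampus array at 5.26. Counted over the 9 probes and 3 arrays of a group, 13 of 27 values were well above background in WT and 22 of 27 in En2-/- cerebellum, against 5 and 23 of 27 in the hippocampus.

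The probes with higher readings did not form an unbroken block. Along the chromosome Klk1b8 was followed by Klk1b1 and Klk1b9, neither of them members, and by Klk1b11, and of these Klk1b1 and Klk1b11 were at background in the cerebellum and Klk1b9 did not pass the test there. The Klk1b26 probe, not well above background on any array, came next, then Egfbp2, Klk1b27 and Klk1b21. After them came the Klk1b16 probe, which was at background on all cerebellum arrays, then Klk1b24 and Klk1b3. A probe at background does not show that its gene did not rise, since the Klk1b26 and Egfbp2 probes lie in the same gene. Klk1b5 and Klk1b22 had no probe, so the order holds for probes and not for genes. The pseudogene Klk1b7-ps and Klk1b1 were at background on all 12 arrays. Of the 6 Klk1b probes that were no members, Klk1b4 and Klk1b9 could be tested for genotype. Klk1b4, another gene of the cluster, read 4.70, 4.39 and 4.63 on WT and 6.66, 6.71 and 6.15 on En2-/- cerebellum arrays. The groups were apart, and the Klk1b4 probe read higher by 1.94 in log2 (SE 0.23, adjusted p = 0.0154). This probe shares 32 of 35 overlapping bases with the Klk1b8 probe, and the part of Klk1b8 RNA in its reading was not tested. In the hippocampus the arrays overlapped, at 3.92, 4.51 and 6.26 in WT and 5.28, 7.05 and 5.24 in En2-/- (0.96, SE 0.67, adjusted p = 0.442). The cerebellum call was lost with normexp background correction (0.82, adjusted p = 0.113) and on the authors' log2 values (0.82, adjusted p = 0.122), and without any 1 of 4 arrays: the first WT (adjusted p = 0.0519), the second WT (0.0853), the first En2-/- (0.0783) or the second En2-/- (0.0565). Klk1b9, another EGF-binding kallikrein, read 5.13, 4.34 and 5.12 in WT and 5.23, 4.06 and 4.70 in En2-/- cerebellum, a difference of -0.20 (SE 0.36, adjusted p = 0.956).

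**Figure D2:**
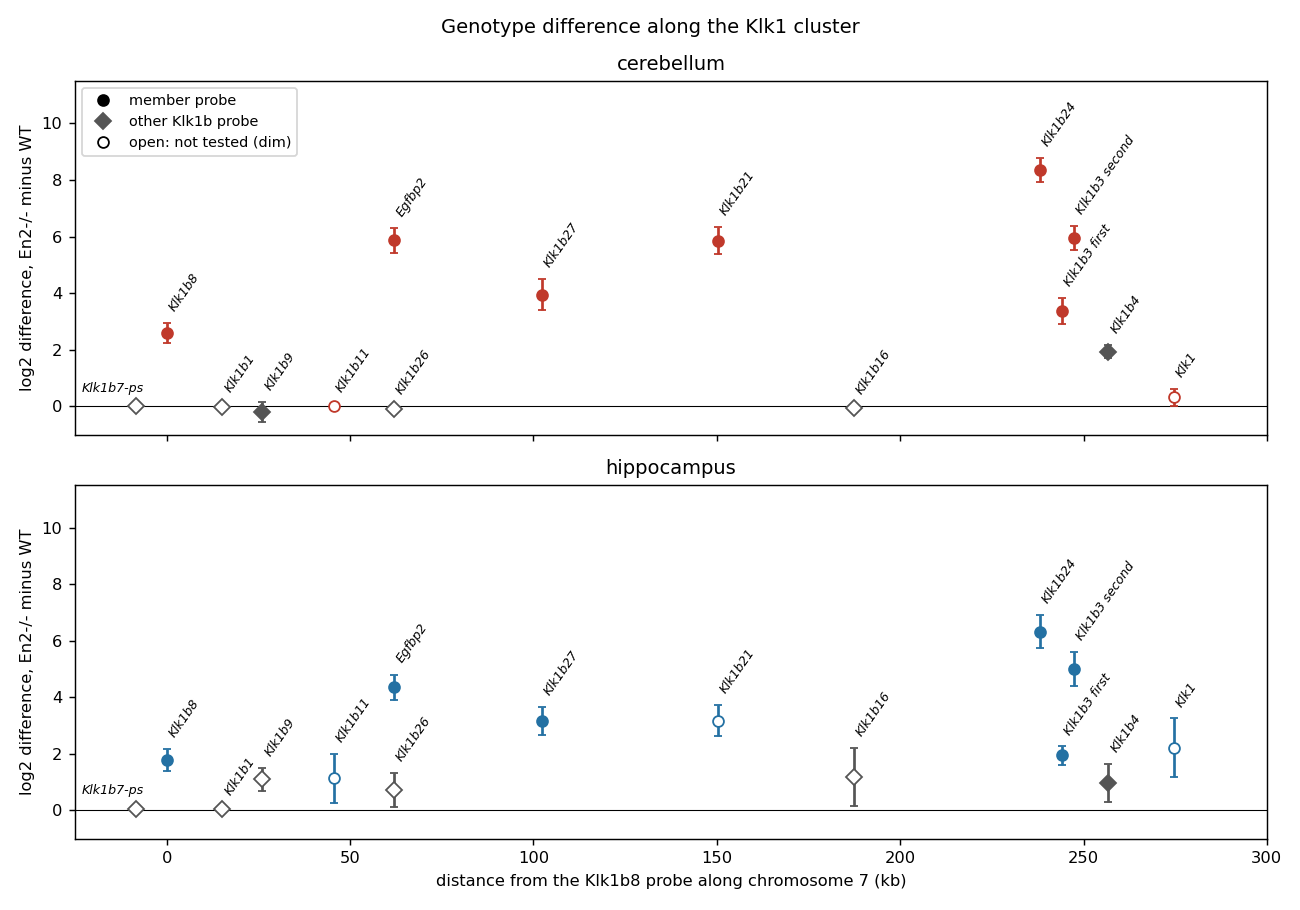
Log2 difference between En2-/- and WT (± SE, 3 arrays per genotype) of each cluster probe against its distance along chromosome 7 in kb from the Klk1b8 probe, cerebellum above and hippocampus below. Circles are member probes, diamonds other Klk1b probes and open symbols were too dim to be tested; high and near-zero differences alternate along the cluster in the cerebellum.

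The genes around the cluster were looked at next. Within 1 Mb of the cluster 130 other probes were present, the 6 other Klk1b probes among them. In the cerebellum 96 could be tested and 1 passed, the Klk1b4 probe, with 6 at an unadjusted p under 0.05 and a median difference of -0.13. In the hippocampus 91 could be tested and 3 passed, with 19 at an unadjusted p under 0.05 and a median of 0.04. Over all probes 5453 of 25674 had an unadjusted p under 0.05 and 544 passed in hippocampus, and 2255 of 27430 and 153 in cerebellum, so the shares among the neighbours were near those over all probes. The 3 were Fuz, a planar cell polarity gene (1.10, SE 0.18, adjusted p = 0.0288), which rose, and Slc17a7, a vesicular glutamate transporter (-1.32, SE 0.24, adjusted p = 0.0372), and Lrrc4b, a synaptic adhesion gene (-1.37, SE 0.25, adjusted p = 0.0405), which fell. A second Fuz probe did not pass (-0.11, SE 0.21, adjusted p = 0.798). These 3 genes lay between 508.1 and 1221.2 kb from the Klk1b8 probe. None of the hippocampus neighbours passed without the first or the second WT array, without the second or the third of the En2-/- arrays, with no filter, or with the replicate number as a block.

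The 7 probes shared an order of arrays within each En2-/- group. In both En2-/- groups the array numbered 2 was the highest for 7 of 7 probes and the array numbered 3 the lowest for 7 of 7. Some of the 7 probes share sequence, so they are not independent readings, and the share of all probes with this order was not counted. The highest and lowest En2-/- array differed by 2.38-fold to 4.32-fold in cerebellum and by 2.26-fold to 5.17-fold in hippocampus, depending on the probe. The WT arrays had no such common order: in cerebellum the highest array was number 1 for 2 probes, number 2 for 2 and number 3 for 3. The methods describe 3 mice per genotype for both tissues, so the order in 1 tissue is no independent repeat of that in the other. Whether arrays of the same number came from the same mouse is not given in the sources used here. Each of 3 slides held the 4 arrays of 1 number, so mouse, slide and number cannot be told apart.

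The second and the third of the En2-/- hippocampus arrays also stood apart in dim genes. Klk1b11 and Klk1b16 were above background on the second (5.26 and 5.65) and on no other array. Klk1 read 7.76 on the second and 5.32 on the third, and at most 4.33 on the other 10 arrays, 3 of which, all from cerebellum, were above background. Genes known from salivary glands were examined beside them, as 10 probes with the abundant Amy1 left out. On the En2-/- hippocampus arrays 0, 3 and 3 of the 10 were well above background and their summed level was 5.73, 8.65 and 7.13. It ranged from 5.91 to 7.89 in WT hippocampus, 6.48 to 6.94 in WT cerebellum and 5.75 to 6.54 in En2-/- cerebellum. With Amy1 included, as 12 probes, the summed level ranged from 13.17 to 13.83 in En2-/- and 12.85 to 13.34 in WT hippocampus, and from 13.26 to 13.47 in WT cerebellum with all 3 En2-/- cerebellum arrays at 13.72 or more. By limma's adjusted p 0 of 3 testable probes passed in cerebellum and 0 of 2 in hippocampus, with 3 and 0 at an unadjusted p under 0.05. In cerebellum the Amy1 probes differed by 0.56 (SE 0.20) and 0.51 (SE 0.20), and Aqp5 the other way by -1.44 (SE 0.27). The list did not move as one, and the genes named next were chosen after their values were seen. Prol1 read 2.03, 8.14 and 5.33 on the En2-/- hippocampus arrays and between 1.87 and 2.28 on the other 9. Dcpp3 read 5.56 on the second and at most 2.27 elsewhere, and Smr2 was above background on the third alone, at 4.45. Muc19 was the reverse, at 7.46 and 6.14 on the first and the second of the WT hippocampus arrays and at background on all En2-/- arrays. In cerebellum Bpifa2 was above background on the first En2-/- array alone, at 4.58, and Smr3a (3.63) and Smr2 (2.79) read higher there than on any other cerebellum array without being well above background. The first Dcpp1 probe was above background on the second WT cerebellum array alone, at 3.71. Both Dcpp2 and the second Dcpp1 probe were at background on all 12 arrays. On the first En2-/- hippocampus array 0 of the 10 salivary probes were above background, and the reading was 9.61 for Klk1b24, 7.52 for Egfbp2 and 7.13 for the second Klk1b3 probe. The part of salivary tissue in the cluster readings was not tested. Without the second En2-/- hippocampus array the log2 differences were 5.98 for Klk1b24, 4.34 for the second and 1.59 for the first Klk1b3 probe, 3.86 for Egfbp2, 2.73 for Klk1b27 and 1.27 for Klk1b8. Without the third they were 6.85, 5.53, 2.18, 4.82, 3.56 and 2.09. Of testis Leydig cell markers 0 of 7 testable probes in cerebellum and 0 of 6 in hippocampus passed limma's test, with 0 and 1 at an unadjusted p under 0.05. The summed level of choroid plexus markers ranged from 12.28 to 16.70 in En2-/- and from 14.67 to 15.98 in WT hippocampus. In cerebellum the groups were apart, at 14.72 to 15.04 in En2-/- and 14.37 to 14.57 in WT. Of 11 testable choroid plexus probes in each tissue 0 passed limma's test, with 4 in cerebellum and 0 in hippocampus at an unadjusted p under 0.05. The median differences were 0.33 and -0.59. The part of such tissue in the readings was not tested.

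**Figure D3:**
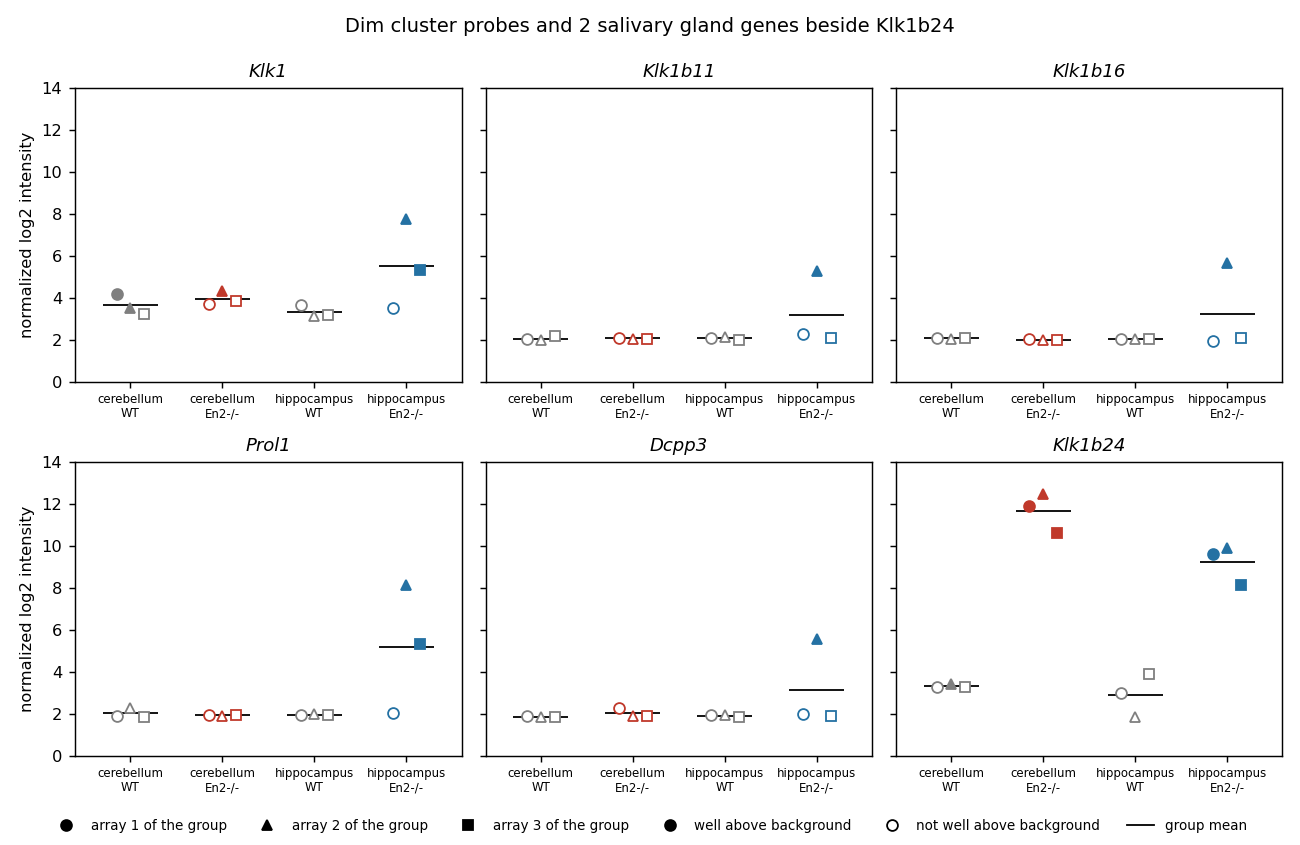
Normalized log2 intensity on the 12 arrays of 3 dim cluster probes (Klk1, Klk1b11, Klk1b16), of the salivary gland genes Prol1 and Dcpp3, and of Klk1b24, with symbols as in the plot of the 9 cluster probes. Klk1, Klk1b11, Klk1b16, Prol1 and Dcpp3 stand out on the second, or on the second and the third, of the En2-/- hippocampus arrays, while Klk1b24 is high on all 6 En2-/- arrays. Prol1 and Dcpp3 were picked after their values were seen, and the salivary list did not move as one. Muc19, not drawn, was well above background only on the first and the second of the WT hippocampus arrays.

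The tissues were then compared within a genotype, a contrast that the choice of members did not use directly. The En2-/- readings are, however, the bright side of the contrast on which the members were chosen. The En2-/- tissue differences are therefore not independent of that choice, and their p-values serve as a description only. In WT mice only the first Klk1b3 probe and Klk1b8 were bright enough to be tested, and neither passed limma's test between cerebellum and hippocampus, nor an unadjusted p under 0.05. The log2 difference, cerebellum minus hippocampus, was 0.65 (SE 0.44, adjusted p = 0.300) for Klk1b3 and 0.30 (SE 0.42, adjusted p = 0.635) for Klk1b8, where 28% of 27393 probes passed. In En2-/- mice 7 probes could be tested and 6 were higher in the cerebellum. Over all 27084 probes tested, 6627 (24.5%) passed in either direction and 3439 as higher in the cerebellum. The difference was 2.45 for Klk1b24 (SE 0.58, adjusted p = 0.00905), 2.38 for Egfbp2 (SE 0.49, adjusted p = 0.00406) and 2.08 for the first Klk1b3 probe (SE 0.44, adjusted p = 0.00483). For Klk1b21 the measured difference was 2.80 (SE 0.54, adjusted p = 0.00258), but 1 of its 3 hippocampus readings was not well above background and it entered the test through the cerebellum, so its size is uncertain. The second Klk1b3 probe differed by 1.95 (SE 0.58, adjusted p = 0.0291) with arrays that overlapped, and Klk1b27 by 1.93 (SE 0.59, adjusted p = 0.0334). Klk1b8 missed the threshold at 1.11 (SE 0.42, adjusted p = 0.0739). Klk1 and Klk1b11, too dim to be tested, had measured differences of the other sign, -1.58 (SE 0.82) and -1.14 (SE 0.66). The median over the 7 tested was 2.08. The calls for the second Klk1b3 probe and Klk1b27 were lost when any of 4 single arrays was left out, in fits that do not match arrays by number. Without the first En2-/- hippocampus array their adjusted p was 0.0765 and 0.0727, without the third 0.122 and 0.132, without the first En2-/- cerebellum array 0.0882 and 0.0713, and without the second 0.0999 and 0.124. Klk1b8 passed without the second En2-/- hippocampus array (adjusted p = 0.00789) or the third En2-/- cerebellum array (0.0398). No test is given of whether the genotype difference itself differed between tissues, since the members were selected on it. Because most WT readings were near background in both tissues, the En2-/- tissue difference largely repeats that comparison.

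**Figure D4:**
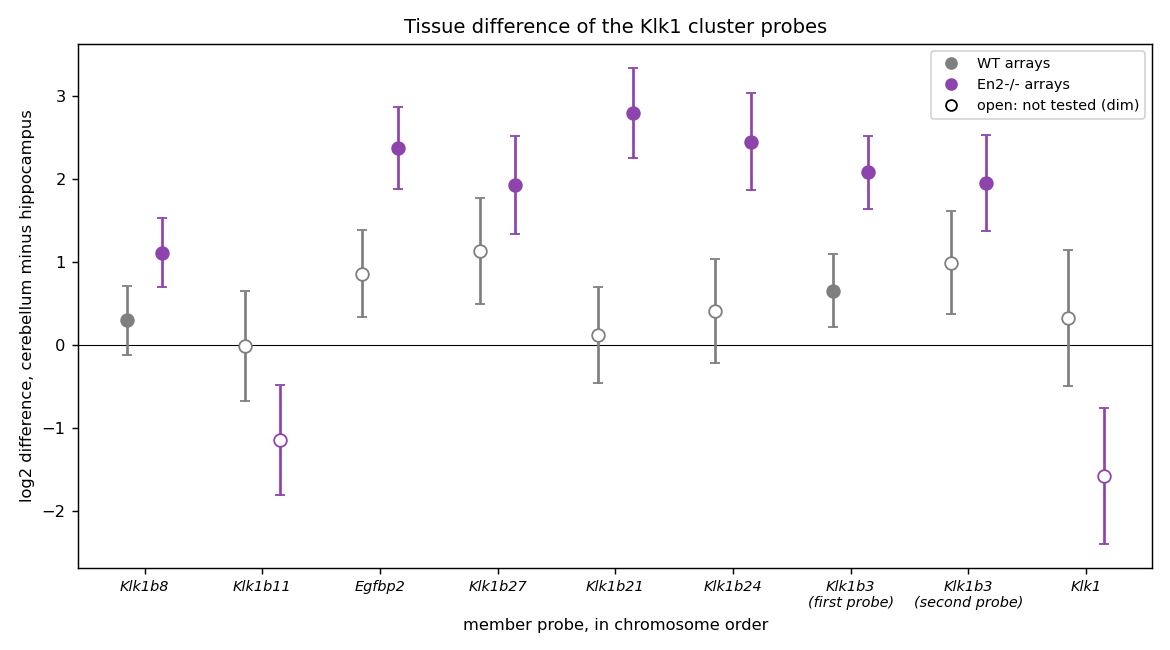
Log2 difference between cerebellum and hippocampus (± SE from the fit over 12 arrays) of the 9 cluster probes in chromosome order, in WT (grey) and En2-/- mice (purple), with open symbols for probes too dim to be tested. In En2-/- mice 7 probes lie between 1.11 and 2.80, Klk1 at -1.58 and Klk1b11 at -1.14, while the WT values rest mostly on probes at background.

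Most WT readings lay close to background, and the size of the genotype difference depended on how background was removed. The values above start from the scanner software's corrected intensity. Normexp correction with an offset of 50 raises dim readings and shrinks differences. With it the cerebellum differences were 5.57 for Klk1b24, 3.51 for Egfbp2, 3.25 for the second and 2.43 for the first Klk1b3 probe, 2.23 for Klk1b21, 1.89 for Klk1b27 and 1.40 for Klk1b8. The hippocampus differences were 3.26, 1.73, 1.77 and 1.02 for the first 4 of these, 0.91 for Klk1b27 and 0.80 for Klk1b8. The authors' log2 values lay close to these, at 5.53 for Klk1b24, 3.49 for Egfbp2 and 1.39 for Klk1b8 in cerebellum and 3.24, 1.69 and 0.79 in hippocampus. All of these were positive, and Klk1b24 had the largest difference on each scale.

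Kallikreins outside the member list, and the genes on which kallikreins act, were looked at as lists. Of 19 other kallikrein genes, 16 had a probe and 8 of 19 probes could be tested in each tissue. For genotype, 1 passed in cerebellum (Klk1b4, above) and 0 in hippocampus, with 2 and 0 at an unadjusted p under 0.05 and medians of -0.49 and 0.39. Klk6, a protease of oligodendrocytes, and Klk8 (neuropsin), a synaptic protease of the hippocampus, were well measured and did not pass. Klk6 differed by -0.11 in cerebellum and 0.42 in hippocampus, and Klk8 by -0.75 and 0.37. Both differed strongly between tissues. In WT mice Klk6 was higher in cerebellum by 4.84 (SE 0.49, adjusted p = 1.76e-05) and Klk8 lower by -4.71 (SE 0.38, adjusted p = 2.72e-06). A Klk7 probe was also lower there (adjusted p = 6.12e-06), but was above background on 0 of 3 WT cerebellum arrays, so no size is given. Klk1b9 was not well above background on any WT hippocampus array, and so was at least 1.36-fold higher in WT cerebellum (measured log2 difference 1.38, SE 0.40, adjusted p = 0.0222). Klk4 was higher there by 0.72 (SE 0.24, adjusted p = 0.0443). The Klk1b9 call was lost with normexp (0.37, adjusted p = 0.0898) and without the first or the second WT hippocampus array or the first or the third of the WT cerebellum arrays (adjusted p from 0.0630 to 0.0759).

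The kininogens Kng1 and Kng2, from which kallikrein releases kinins, had 3 probes, none of which could be tested. Of the kinin receptors, Bdkrb1 could be tested and did not pass for genotype in cerebellum (-0.24, adjusted p = 0.898) or hippocampus (0.94, SE 0.24, adjusted p = 0.0935). In En2-/- mice Bdkrb1 was lower in cerebellum than in hippocampus (-1.03, SE 0.25, adjusted p = 0.0111). Of 11 genes that degrade kinins or inhibit kallikreins, 10 of 17 probes could be tested in each tissue and 0 passed limma's test for genotype, with 2 and 2 at an unadjusted p under 0.05 and medians of 0.15 and -0.13. The growth factors and receptors that kallikreins bind or process were 7 genes with 14 probes. Of these 12 could be tested in cerebellum and 9 in hippocampus, and 0 passed for genotype, with 2 and 1 at an unadjusted p under 0.05 and medians of 0.19 and 0.14. Egf itself differed by -0.17 (SE 0.26, adjusted p = 0.938) in cerebellum.

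The first Klk1b3 probe was the reference to which the pattern of other probes was compared. The rule took the probe with the highest mean intensity, which says nothing of the relative levels of the genes. Pearson's r over the 12 arrays was 0.978 for Klk1b21, 0.964 for Klk1b8, 0.960 for Egfbp2, 0.949 for the second Klk1b3 probe, 0.932 for Klk1b27 and 0.924 for Klk1b24. It was 0.765 for Klk1b4, 0.403 for Klk1b9, 0.347 for Klk1 and 0.183 for Klk1b11. Of 27133 candidate probes outside the cluster list, the 5 most alike were Ppt1, a lysosomal thioesterase (0.935), Polr3e, an RNA polymerase III subunit (0.934), Rnf125, a ubiquitin ligase (0.924), Fsd1l (0.924) and Fn3k, a fructosamine kinase (0.918). The 12 points share 2 genotypes, 2 tissues and 3 slides, so r describes mostly the pattern over groups and carries no test. The members were selected on the genotype contrast, so high r among them restates the selection. The genotype differences of these 5 ran from 0.74 to 1.48 in cerebellum and from 0.47 to 1.46 in hippocampus. They were smaller than those of the 7 cluster probes, which were selected on that difference.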

How the data were processed

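Gene expression was measured on 12 single-dye Agilent arrays, 3 per genotype and tissue, grouped by their labels. For every array the authors deposited the scanner software's spot intensity on a linear scale, corrected for background within the array by that software, with detection flags, probe sequences and mm9 positions. They also deposited log2 values of 27534 probes, which the methods describe as filtered with Agi4x44PreProcess and quantile normalized. No aligner is involved.

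Here control spots and outlier-flagged spots (110 to 331 per array) were left out, log2 intensities were quantile normalized over the 12 arrays, and spots of a probe (245 probes had several) were averaged. Gene names came from the newer annotation of the cerebellum files for all arrays, which differed from the other at 4691 spots. Linear models were fitted per probe in R 4.3.3 with limma 3.58.1, within a tissue for genotype and over 12 arrays for tissue, with Benjamini-Hochberg adjustment over all probes tested and a threshold of 0.05. A probe was tested if 1 group or both had it well above background on each of 3 arrays and neither group lacked more than 1 value. Sequences were handled in Python 3.11.15 with pandas 2.3.3 and numpy 2.4.6, and matplotlib 3.10.9 drew the figures. Scripts were first tested on simulated data. The p-values measure the spread between 3 arrays per group, and this small number sets the precision.

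The members, lists and tests were chosen with earlier results of these data known. The text names every member probe, each listed pathway gene and each neighbour within 1 Mb that passed in a tissue, the 5 probes most like the leading cluster probe, and En2. Other genes named were chosen after their values were seen. Same-numbered WT and En2-/- arrays did not deviate together (r from -0.20 to 0.09), so no replicate block was used. Other background corrections, normalizations, filters, the authors' values, the rank product that the study used (100 permutations), the block and the omission of each array in turn were tried. Genome sequence at the mm9 probe positions was not used here, and 1 listed gene is not reported by name.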

Additional observations from a re-analysis of the deposited data

How the results depend on the processing

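Klk1 and Klk1b11 were too dim for any test and are not counted here. For the tested cluster probes the genotype difference was positive in 92 of 92 cases in cerebellum (1.39 to 8.88) and 79 of 79 in hippocampus (0.79 to 6.85). The tissue difference was positive in 95 of 95 cases in En2-/- mice (0.65 to 3.36, with 10 losing and 5 gaining the call) and in 26 of 26 in WT (0.06 to 1.12, none called). Counts of cluster probes by genotype restate the selection of the members and are given only to show how the threshold moves with the setting. Of 7 cluster probes called in cerebellum and 5 in hippocampus, 3 and 2 passed with normexp, 3 and 2 with background subtraction, 3 and 2 on the authors' values, 3 and 2 with no filter, 2 and 1 with a filter on both groups, and 4 to 7 and 1 to 5 leaving out 1 array. The lowest counts came without the first or second WT or first En2-/- cerebellum array (4 each) and without the first WT hippocampus array (1, against 3 without the second).

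Of 153 calls over all probes in cerebellum, 66 remained in number with no filter, 90 with both groups detected, 65 to 128 leaving out 1 array, and the rank product gave 1242. Of 544 in hippocampus the numbers were 185 with no filter, 98 to 384 leaving out 1 array, and 1092 by rank product. Neighbours called in cerebellum (1) came to 0 with normexp, 0 with subtraction, 0 on the authors' values, 0 with no filter, 0 to 1 leaving out 1 array and 3 by rank product. In hippocampus (3) they came to 0 with no filter, 0 to 2 leaving out 1 array and 5 by rank product. With the replicate number as a block, hippocampus calls fell to 146, with 4 cluster probes and 0 neighbours, and cerebellum calls to 116, with 6 cluster probes and 1 neighbour. The block left 6 cluster probes called between En2-/- tissues and 0 between WT tissues. Between En2-/- tissues the adjusted p with the block was 0.0179 for the second Klk1b3 probe and 0.0483 for Klk1b27, whose differences within a number were 1.23 to 2.57 and 1.81 to 2.04. The labels do not state a pairing, and same-numbered cerebellum and hippocampus arrays did not deviate together (r from -0.28 to 0.27).

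Signs turned only at uncalled values. Klk1b9 differed by genotype in cerebellum by 0.11 without the second En2-/- array (range -0.48 to 0.11), and between En2-/- tissues by -0.18 and -0.11 without the first or the third of the hippocampus arrays and -0.20 without the first cerebellum array (range -0.20 to 0.54, 0.08 with all). Klk1b4 differed between WT tissues by 0.19 with quantiles within a tissue, 0.21 on the authors' values and 0.36 without the third of the WT hippocampus arrays (range -0.81 to 0.36, -0.32 with all). The causes were not tested. Probes near background limit every fold above.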
